A study of Mus musculus with 10 samples.

Results

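Myc, Mycn and Myb encode 3 transcription factors that drive cell growth and division in lymphocytes, and the accessibility of chromatin around their genes was compared between 2 subsets of thymic invariant natural killer T (iNKT) cells in normal mice and in mice with weakened T cell receptor (TCR) signaling. The regions were chosen by position alone. They were the rows of the ATAC-seq table that overlapped the body of each gene or lay within 50 kb of its transcription start, and for Myc also the rows up to 2 Mb downstream of the gene. By this rule 97 of 94823 regions were taken, of which 74 belonged to Myc (11 in or near the gene, called proximal here, and 63 downstream), 6 to Mycn and 17 to Myb.

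ATAC-seq measures open chromatin as the number of insertions that a transposase makes in a region. Thymic iNKT1 cells were sorted as CD27+ CD122+ and iNKT2 cells as CD27+ CD122-. Both came from BALB/c mice and from the SKG strain, whose Zap70 allele on that background is hypomorphic, so that TCR signals are weak in every T lineage cell. There were 2 libraries of iNKT1 and 3 of iNKT2 cells for each genotype (4 groups, 10 libraries), from mice that the study's methods give as 8 to 10 weeks old. How many mice went into a library was not given in the sources used here, so the p-values measure the spread between these libraries, which may be technical.

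The libraries held 14988590 to 36342635 insertions inside the listed regions, and their subset labels were checked against marker promoters. The summed level over the promoters of Tbx21, Il2rb and Cxcr3, which mark iNKT1 cells, was 134 to 149 CPM (each library's insertions scaled to a common total) in the iNKT1 libraries and 35.1 to 53.8 CPM in the iNKT2 libraries, while Klrb1c had no promoter region. The 4 iNKT2 markers (Zbtb16, Il17rb, Gata3 and Ccr7) summed to 51.7 to 66.5 CPM in iNKT1 and 66.3 to 109 CPM in iNKT2 libraries, so the subsets overlapped slightly. Of the 4, Il17rb rose from iNKT1 to iNKT2 in BALB/c (1.08, log2), and Il17rb and Ccr7 in SKG (1.44 and 1.46). By library totals or by quantiles 2 of 4 rose in BALB/c. Zbtb16 (-0.36 in BALB/c) and Gata3 (-0.27) did not pass in either genotype by edgeR with TMM factors. The promoters of Il23r, Ccr6 and Il17a, which mark iNKT17 cells, separated the subsets. Their group means were 0.0321 to 0.193 CPM in iNKT1 and 0.937 to 5.46 CPM in iNKT2 cells, all 3 rose from iNKT1 to iNKT2 in both genotypes, and their part in the subset differences below was not tested. In iNKT2 cells 2 of the 3 also differed between genotypes, with Il17a lower in SKG by 2.32 (log2, adjusted p = 2.1e-04) and Ccr6 higher by 1.51 (adjusted p = 7.2e-03), and their part in the genotype differences was not tested either. The T lineage markers (Cd3e, Cd3g, Lck and Thy1) summed to 89.4 to 103 CPM in iNKT1 and 57.5 to 81.0 CPM in iNKT2 libraries, so the subsets did not overlap. Of the 4, Cd3e, Lck and Thy1 fell from iNKT1 to iNKT2 in BALB/c and Lck and Thy1 in SKG (1 of 4 in BALB/c by library totals or by quantiles), and Thy1 was higher in SKG than in BALB/c iNKT2 cells by 1.03 (adjusted p = 2.5e-03). None of the 4 double-positive thymocyte markers had a promoter region, 1 of 4 B cell markers had one (Ebf1, at most 3.88 CPM), and 2 of 4 myeloid markers had one (Itgam and Spi1, 17.5 to 19.0 CPM in iNKT1 and 6.11 to 8.22 CPM in iNKT2 libraries), with Csf1r and Lyz2 lacking one. Among the iNKT2 libraries, replicate 1 of each genotype often stood apart, and results that lean on it are also given without it.

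MYC and MYCN are closely related proteins that pair with MAX on E-box DNA and raise the transcription of genes for ribosomes, metabolism and cell cycle entry. Myc is induced rapidly when the TCR is engaged, and its locus is followed by a long stretch of noncoding DNA that holds the noncoding RNA gene Pvt1 and distant enhancers. Mycn is mostly known from immature and neural cells. MYB keeps lymphoid progenitors proliferating and is needed for the survival of double-positive thymocytes, from which iNKT cells arise, and the DNA between Myb and its neighbour Hbs1l is known for enhancers of Myb in blood cells.

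The central 300 bases of 7 regions are shown because the results turn on them: the promoters of Mycn and Myc, a pair of downstream Myc regions that differed between the subsets in opposite directions, and 3 regions upstream of Myb that were lower in SKG iNKT1 cells. They are given 5′ to 3′ on the plus strand of the reference genome GRCm38.p6 (RefSeq, C57BL/6J, so not the BALB/c sequence itself). Mycn and Myb lie on the minus strand. Capitals mark any match, on either strand, to the short motifs spelled out after the sequences.
Mycn promoter: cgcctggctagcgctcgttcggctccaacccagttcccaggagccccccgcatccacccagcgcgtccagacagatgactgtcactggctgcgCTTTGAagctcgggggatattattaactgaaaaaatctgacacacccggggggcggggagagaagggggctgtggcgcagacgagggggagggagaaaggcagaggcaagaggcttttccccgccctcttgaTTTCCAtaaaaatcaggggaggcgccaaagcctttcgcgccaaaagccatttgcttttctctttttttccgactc
Myc promoter: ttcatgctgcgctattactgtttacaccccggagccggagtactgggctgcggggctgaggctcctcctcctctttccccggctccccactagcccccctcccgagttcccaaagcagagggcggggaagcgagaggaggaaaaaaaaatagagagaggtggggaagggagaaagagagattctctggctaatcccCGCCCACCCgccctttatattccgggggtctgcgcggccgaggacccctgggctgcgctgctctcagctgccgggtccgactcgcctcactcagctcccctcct
Myc +172.7 kb: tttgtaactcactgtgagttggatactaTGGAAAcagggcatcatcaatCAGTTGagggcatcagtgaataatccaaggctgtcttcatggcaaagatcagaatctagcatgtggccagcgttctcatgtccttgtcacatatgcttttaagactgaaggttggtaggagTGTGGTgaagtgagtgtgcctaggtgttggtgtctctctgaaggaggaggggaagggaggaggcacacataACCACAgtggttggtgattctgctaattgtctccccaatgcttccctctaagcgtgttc
Myc +1626.0 kb: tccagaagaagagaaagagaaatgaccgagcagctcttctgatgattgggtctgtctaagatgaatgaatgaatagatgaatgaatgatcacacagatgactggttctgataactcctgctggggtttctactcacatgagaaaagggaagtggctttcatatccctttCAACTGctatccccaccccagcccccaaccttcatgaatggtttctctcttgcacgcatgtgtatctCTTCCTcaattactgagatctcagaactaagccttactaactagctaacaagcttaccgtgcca
Myb -17.5 kb: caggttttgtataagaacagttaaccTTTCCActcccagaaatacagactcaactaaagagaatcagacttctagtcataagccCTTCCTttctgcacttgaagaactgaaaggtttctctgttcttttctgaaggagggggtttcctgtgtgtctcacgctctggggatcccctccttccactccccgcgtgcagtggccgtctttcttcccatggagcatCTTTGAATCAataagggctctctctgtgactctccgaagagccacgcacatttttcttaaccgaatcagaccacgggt
Myb -18.0 kb: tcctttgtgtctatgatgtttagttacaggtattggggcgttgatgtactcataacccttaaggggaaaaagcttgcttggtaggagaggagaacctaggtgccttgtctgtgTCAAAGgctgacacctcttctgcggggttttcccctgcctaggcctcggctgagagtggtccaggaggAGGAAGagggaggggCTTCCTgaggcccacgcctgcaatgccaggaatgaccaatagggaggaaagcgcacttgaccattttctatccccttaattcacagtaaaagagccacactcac
Myb -25.9 kb: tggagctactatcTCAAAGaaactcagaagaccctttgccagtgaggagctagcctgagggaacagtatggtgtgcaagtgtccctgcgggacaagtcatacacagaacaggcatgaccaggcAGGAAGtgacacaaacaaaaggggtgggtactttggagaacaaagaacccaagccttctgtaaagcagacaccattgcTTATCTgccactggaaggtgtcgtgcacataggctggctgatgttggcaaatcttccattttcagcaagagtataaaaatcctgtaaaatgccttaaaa
The windows lie at chr12:12941751-12942050 (Mycn promoter), chr15:61985147-61985446 (Myc promoter), chr15:62157976-62158275 (Myc +172.7 kb), chr15:63611195-63611494 (Myc +1626.0 kb), chr10:21178319-21178618 (Myb -17.5 kb), chr10:21178802-21179101 (Myb -18.0 kb) and chr10:21186751-21187050 (Myb -25.9 kb). Their GC content was 58.0% for the Mycn promoter, 63.0% for the Myc promoter and 44.0 to 51.7% for the other 5 windows.

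Each motif was searched on both strands. The letters TGGAAA stood for NFAT, which calcium signals from the TCR bring to the nucleus. Those of the TCR-induced EGR factors were GNGTGGGNG and those of AP-1, which binds with NFAT, were TGANTCA. For RUNX factors, needed throughout T cell development, the search used TGTGGT. For TCF/LEF, which act in immature thymocytes, it used CTTTGA, and for the broadly expressed ETS family AGGAAG. T-box factors such as T-bet were searched as TCACACC, those of the family of GATA3 as AGATAA, and MYB itself as CAACTG, which is also an E-box in the wider sense. The E-box that MYC and MYCN bind was searched as CACGTG, and the last motif was NF-kB with GGAATTTCC. NFAT and ETS share the core GGAA, and in the region 17.5 kb upstream of Myb the AP-1 and TCF/LEF matches overlap. Over the 97 regions the TCF/LEF letters were in 35 (36.1%, against 21.5% of all 94823 regions), the RUNX letters in 36 (37.1% against 30.3%) and the GATA letters in 20 (20.6% against 14.3%). The ETS letters were in 49 (50.5% against 45.3%) and the NFAT letters in 24 (24.7% against 23.4%). AP-1 was in 10 (10.3% against 10.6%), MYB in 13 (13.4% against 14.4%), EGR in 8 (8.25% against 12.8%), T-box in 5 (5.15% against 5.48%), the MYC E-box in 2 (2.06% against 6.86%) and NF-kB in 0 (against 0.298%). Of the 17 Myb windows, 8 held TCF/LEF, 7 NFAT and 11 ETS letters. These are matches of letters and are given as a description.

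At the promoters the 3 genes had different levels and different subset patterns. Per kb of region, the mean level over the 4 groups was 64.3 CPM at the Myc promoter, higher than 94.1% of all regions, 19.5 CPM at the Myb promoter (higher than 74.8%) and 7.94 CPM at the Mycn promoter (higher than 49.2%). Between iNKT2 and iNKT1 cells, the Myc promoter was lower, the Mycn promoter was several times higher, and the Myb promoter did not pass the test in either genotype.

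**Figure D1:**
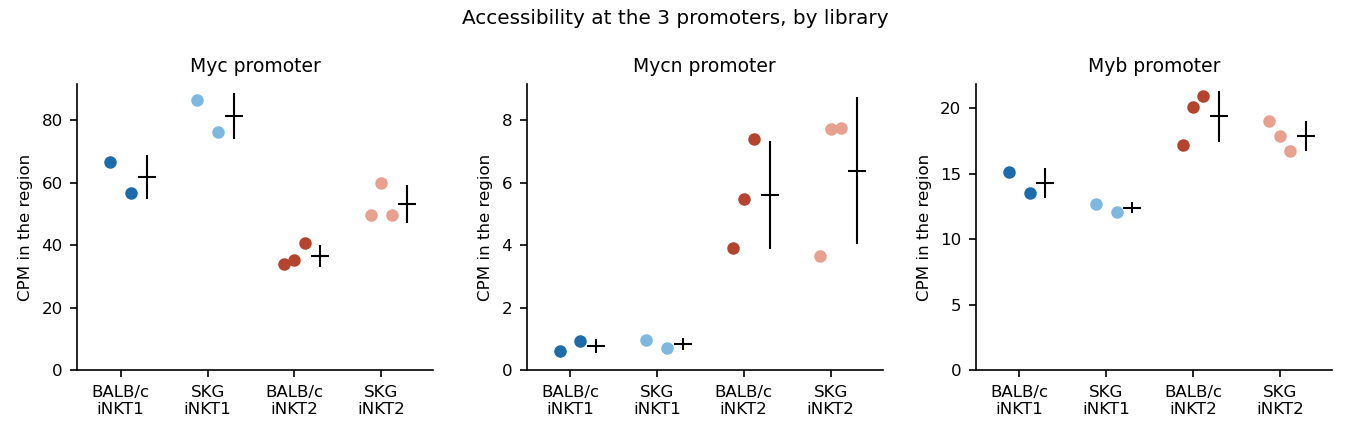
Accessibility of the promoter regions of Myc, Mycn and Myb in CPM (vertical axes, from 0), 1 point per library by group on the horizontal axis, with the group mean and SD as a black mark and bar. The Mycn promoter lay between 0.597 and 0.964 CPM in the 4 iNKT1 libraries and between 3.66 and 7.75 CPM in the 6 iNKT2 libraries, and the Myc promoter was highest in the SKG iNKT1 libraries.

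Mycn was more accessible in iNKT2 than in iNKT1 cells across its whole gene in both genotypes, with no difference between genotypes that passed the test. Its promoter (chr12:12941688-12942114, holding the start of Mycn) had 0.597 and 0.926 CPM in BALB/c iNKT1, 0.964 and 0.706 CPM in SKG iNKT1, 3.92, 5.48 and 7.38 CPM in BALB/c iNKT2, and 3.66, 7.72 and 7.75 CPM in SKG iNKT2. Every iNKT2 library was above every iNKT1 library, and replicate 1 was the lowest iNKT2 library in both genotypes. The change was 2.90 ± 0.404 on the log2 scale (SE, 7.45-fold, adjusted p = 1.8e-05) in BALB/c and 2.90 ± 0.435 (7.48-fold, adjusted p = 5.1e-05) in SKG. Without replicate 1 of the respective iNKT2 group it was 3.12 in BALB/c and 3.20 in SKG.

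The most accessible Mycn region per kb lay 0.6 kb upstream of the start (chr12:12942263-12942760). It rose from 2.95 ± 0.626 CPM (SD, n = 2) in BALB/c iNKT1 to 11.5 ± 2.36 CPM (n = 3) in BALB/c iNKT2, and from 3.69 ± 0.314 (n = 2) to 12.9 ± 3.78 CPM (n = 3) in SKG. The log2 changes were 1.97 ± 0.280 (adjusted p = 2.1e-05) and 1.79 ± 0.288 (adjusted p = 1.0e-04). The other regions lay inside the gene. The one at +2.8 kb, in an intron (chr12:12938922-12939293), rose by 2.83 ± 0.339 in BALB/c (adjusted p = 4.2e-06) and 3.04 ± 0.381 in SKG (adjusted p = 9.0e-06), and the one at +4.6 kb, which overlaps a coding exon (chr12:12937062-12937564), rose by 2.42 ± 0.268 (adjusted p = 2.0e-06) and 1.71 ± 0.276 (adjusted p = 1.0e-04). Summed over the 6 regions, the level was 5.56 to 8.72 CPM in the 4 iNKT1 libraries and 27.4 to 41.5 CPM in the 6 iNKT2 libraries.

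In the comparison of iNKT2 with iNKT1 cells in BALB/c, 6 of 6 Mycn regions rose at an adjusted p under 0.01, and 5 of them by at least 4-fold. Over all regions, 25.7% rose and 23.4% fell at that p, and 15.5% rose and 6.36% fell by at least 4-fold with it. In SKG 6 of 6 rose and 2 of them by at least 4-fold. Over all regions 18.4% rose and 17.6% fell there, and 10.2% rose and 6.96% fell by at least 4-fold. The SKG rise at +1.1 kb (1.63) did not pass with the 2 groups alone (edgeR, adjusted p = 0.013) or by limma voom without or with quantile scaling (0.054 and 0.20). It also did not pass by edgeR without BALB/c or SKG iNKT2 replicate 2 (0.012 and 0.029) or 3 (0.013 and 0.023). Nor did it pass without SKG iNKT1 replicate 1 or 2, which leaves 1 library in that group (2.14 and 1.25). The BALB/c rise there (2.15) did not pass by voom with quantile scaling (adjusted p = 0.022). By edgeR it did not pass without BALB/c iNKT1 replicate 1 (1.71). The SKG rise at +3.5 kb (1.94) did not pass without SKG iNKT1 replicate 1 (1.56). The 6 regions had median changes of 2.54 (BALB/c) and 1.87 (SKG), while all regions had medians of 0.06 and 0.14. Between SKG and BALB/c the 6 regions differed by -0.20 to 0.47 in iNKT1 and by -0.29 to 0.17 in iNKT2 cells, and at an unadjusted p under 0.05 the count was 0 of 6 in both.

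The Myc promoter (chr15:61984844-61985749, holding the start of Myc) had 66.8 and 56.8 CPM in BALB/c iNKT1, 86.6 and 76.2 CPM in SKG iNKT1, 34.0, 35.3 and 40.6 CPM in BALB/c iNKT2, and 49.7, 60.1 and 49.6 CPM in SKG iNKT2. The order of the group means was SKG iNKT1, BALB/c iNKT1, SKG iNKT2 and BALB/c iNKT2. Neighbours in this order did not overlap, except that BALB/c iNKT1 and SKG iNKT2 libraries interleaved. The promoter fell from iNKT1 to iNKT2 by 0.76 ± 0.139 in BALB/c (1.69-fold, adjusted p = 2.3e-04) and by 0.61 ± 0.140 in SKG (1.53-fold, adjusted p = 1.8e-03). It was higher in SKG than in BALB/c iNKT2 cells by 0.54 ± 0.127 (1.45-fold, adjusted p = 5.7e-03), and the difference in iNKT1 cells, 0.40 ± 0.154, did not pass (adjusted p = 0.18).

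By edgeR with TMM factors, promoters in general moved the same way. Over 9916 promoter regions of protein-coding genes the median change from iNKT1 to iNKT2 was -0.35 in BALB/c (quartiles -0.64 and -0.04) and -0.14 in SKG (quartiles -0.37 and 0.12), and 16.9% and 9.76% of promoters fell further than Myc did. From BALB/c to SKG iNKT2 cells their median change was 0.26, and 93.3% lay below Myc. These medians depended on the scaling. From iNKT1 to iNKT2 they were -0.07 in BALB/c and 0.03 in SKG by library totals, and -0.01 and 0.06 by quantiles. Between genotypes in iNKT2 cells they were 0.13 and 0.06. The shares below Myc were 16.6% in BALB/c and 9.49% in SKG by library totals, and 20.2% and 9.42% by quantiles. Between genotypes in iNKT2 cells they were 93.1% and 81%. The Myc difference between genotypes in iNKT2 did not pass when insertions were scaled by library totals (0.41, adjusted p = 0.014), by quantiles (0.30, adjusted p = 0.044) or with the 2 iNKT2 groups alone (0.54, adjusted p = 0.017), and it did not pass without BALB/c iNKT1 replicate 1 (adjusted p = 0.011), BALB/c iNKT2 replicates 1, 2 or 3 (0.014, 0.038 and 0.010), SKG iNKT1 replicate 1 (0.010) or SKG iNKT2 replicates 2 or 3 (0.030 and 0.011). The fall from iNKT1 to iNKT2 in BALB/c was -0.48 by library totals and -0.37 by quantiles, where it still passed (adjusted p = 3.3e-03 and 8.8e-03). It did not pass in BALB/c without BALB/c iNKT1 replicate 1 (-0.60, adjusted p = 0.012), nor in SKG by quantiles (-0.39, adjusted p = 0.015), without SKG iNKT1 replicate 1 (-0.52, adjusted p = 0.039) or without SKG iNKT2 replicate 3 (-0.57, adjusted p = 0.010).

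Around the promoter the other proximal Myc regions split. A wide region over the gene body (+2.0 kb, chr15:61986264-61988449, chosen after its values were seen) had 71.5 ± 11.7 CPM in BALB/c iNKT1 and 41.7 ± 2.56 CPM in BALB/c iNKT2, and fell by 0.78 ± 0.129 (adjusted p = 8.9e-05), or by 0.50 with library totals and 0.41 with quantiles (both passed). The proximal region with most insertions per kb lay 1.9 kb upstream (chr15:61983360-61983682). There BALB/c iNKT1 had 26.3 and 26.9 CPM and BALB/c iNKT2 had 13.3, 16.3 and 17.9 CPM, a fall of 0.75 ± 0.158 (adjusted p = 7.3e-04), while SKG iNKT1, with 20.8 and 24.4 CPM, overlapped SKG iNKT2, with 21.4, 26.4 and 22 CPM (0.04 ± 0.163, adjusted p = 0.84). The difference between the 2 genotypes in this subset change, 0.79 ± 0.228, did not pass (adjusted p = 0.063), and the fall in BALB/c was -0.47 by library totals (adjusted p = 0.010) and -0.35 by quantile scaling (adjusted p = 0.049).

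Larger proximal changes were found at smaller regions. The region at -3.8 kb (chr15:61981469-61981793, in an intron of the noncoding gene Gm37947) fell from 5.12 ± 0.572 CPM in BALB/c iNKT1 to 0.948 ± 0.193 CPM in BALB/c iNKT2 (5.36-fold, adjusted p = 4.7e-06) and 4.97-fold in SKG (adjusted p = 4.2e-05). The region at +46.9 kb (chr15:62031929-62032745, intergenic) fell 6.11-fold in BALB/c, from 14.9 ± 0.589 to 2.45 ± 0.501 CPM (adjusted p = 2.2e-07), and 3.93-fold in SKG (adjusted p = 5.5e-06). In the other direction, the regions at -43.2 kb (chr15:61942006-61942372) and +40.0 kb (chr15:62025239-62025581) rose in BALB/c from 0.0747 to 2.50 CPM and from 0.103 to 1.54 CPM (group means), with adjusted p = 3.5e-05 and 9.0e-05. In SKG both also rose, by 3.55 ± 0.797 (adjusted p = 1.7e-03) and 3.49 ± 0.869 (adjusted p = 3.6e-03). These last rises rest on few insertions. At +40.0 kb SKG iNKT1 held 2 insertions and SKG iNKT2 54, a ratio of 12 with a 95% counting interval of 3.16 to 101. The SKG rise at -43.2 kb did not pass without SKG iNKT1 replicate 1 or 2 (4.50 and 2.98, adjusted p = 0.013 and 0.031), and that at +40.0 kb did not pass without SKG iNKT1 replicate 2 (2.54, adjusted p = 0.046). With limma voom neither SKG rise passed, at 3.32 (adjusted p = 0.047) and 3.45 (adjusted p = 0.016), nor with quantile scaling added, at 2.27 (adjusted p = 0.12) and 2.12 (adjusted p = 0.067). The BALB/c rise at -43.2 kb did not pass with quantile scaling (3.79, adjusted p = 0.013). Fits that left a group with 0 insertions gave values that are no measure of size (8.92 at -43.2 kb without BALB/c iNKT1 replicate 1, and 7.34 at +40.0 kb without SKG iNKT1 replicate 1). Among the 11 proximal regions 2 rose and 7 fell in BALB/c (18.2% and 63.6%, against 25.7% and 23.4% of all regions). In SKG 2 rose and 4 fell (18.2% and 36.4%, against 18.4% and 17.6%).

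The 63 downstream regions held both directions in the same stretch of DNA. In BALB/c 17 rose and 23 fell from iNKT1 to iNKT2, which is 27.0% and 36.5% of them against 25.7% and 23.4% of all regions. At 4-fold or more there were 11 each (17.5% each, against 15.5% higher and 6.36% lower over all regions). In SKG 14 rose and 22 fell (22.2% and 34.9%, against 18.4% and 17.6%), with 10 and 11 at 4-fold or more (15.9% and 17.5%, against 10.2% and 6.96%). Their median change was -0.12 in BALB/c and -0.11 in SKG. The summed level of the 63 regions was 547 CPM in BALB/c iNKT1, 562 CPM in SKG iNKT1, 337 CPM in BALB/c iNKT2 and 355 CPM in SKG iNKT2 (group means). The sum was thus lower in iNKT2 cells. More regions fell than rose in both genotypes, while the numbers at 4-fold or more were close.

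**Figure D2:**
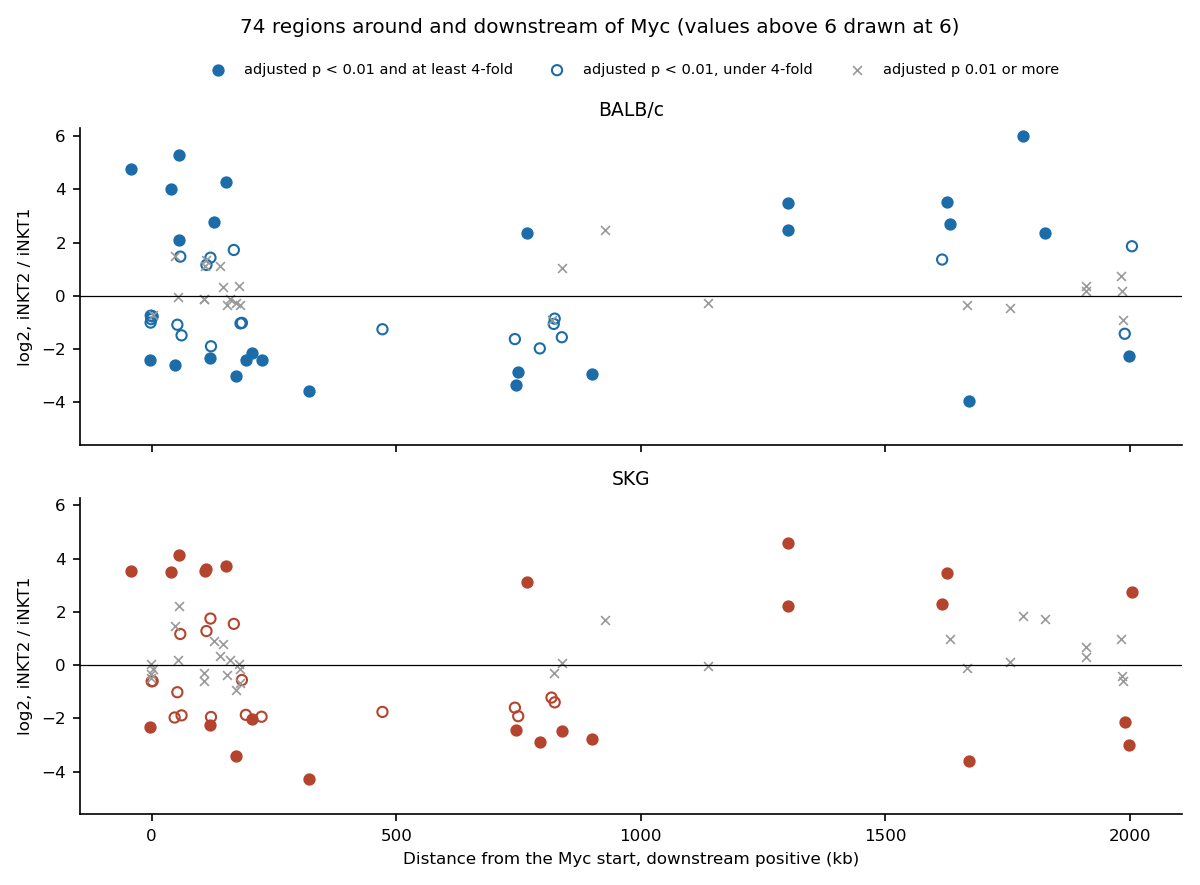
Log2 change from iNKT1 to iNKT2 (vertical axis) of the 74 Myc regions against distance from the Myc start in kb (horizontal axis), in BALB/c (top) and SKG (bottom). Filled circles passed the test with at least 4-fold change, open circles passed with less, and crosses did not pass. In both genotypes the regions between 0.5 and 1 Mb mostly fell (8 of 12 passed lower), and those at +1300.8, +1302.0 and +1626.0 kb rose.

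Along Pvt1, the noncoding RNA gene next to Myc, the widest region and the one with most insertions lay at +184.5 kb (chr15:62169019-62170802, an intron, chosen after its values were seen). It had 135 ± 1.90 CPM in BALB/c iNKT1 and 66.5 ± 5.71 CPM in BALB/c iNKT2, and fell by 1.02 ± 0.122 (adjusted p = 4.1e-06). In SKG it fell by 0.56 ± 0.123 (adjusted p = 1.4e-03), and this did not pass by library totals (-0.38, adjusted p = 0.016), by quantiles (-0.34, adjusted p = 0.073) or without SKG iNKT1 replicate 2 (0.031). The region at +172.7 kb, also in an intron of Pvt1 (chr15:62157895-62158356, shown above), had 12.7 and 11.9 CPM in BALB/c iNKT1, 17.5 and 15.1 CPM in SKG iNKT1, 2.23, 1.38 and 0.907 CPM in BALB/c iNKT2, and 2.08, 1.19 and 1.01 CPM in SKG iNKT2. All iNKT1 libraries were above all iNKT2 libraries. The fall was 8.04-fold in BALB/c (-3.01 ± 0.295, adjusted p = 5.9e-07) and 10.8-fold in SKG (-3.43 ± 0.307, adjusted p = 3.3e-07). At +192.6 kb, over an exon of Pvt1 (chr15:62177718-62178361), the level fell from 38.9 ± 4.65 to 7.25 ± 2.13 CPM in BALB/c (5.38-fold, adjusted p = 2.5e-07). Within the same gene, the region at +55.8 kb (chr15:62041007-62041472) rose from 0.269 and 0 CPM in BALB/c iNKT1 to 3.26, 7.46 and 8.25 CPM in BALB/c iNKT2 (5.28 ± 0.626, adjusted p = 3.7e-06), and by 4.15 ± 0.577 in SKG (adjusted p = 2.5e-05). Without BALB/c iNKT1 replicate 1, the BALB/c iNKT1 group held 0 insertions there and the fitted value, 10.26, is no measure of size. Of the 31 downstream regions inside Pvt1, 8 rose and 11 fell in BALB/c (25.8% and 35.5%, against 25.7% and 23.4% of all regions). In SKG 8 rose and 10 fell (25.8% and 32.3%, against 18.4% and 17.6%).

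Beyond Pvt1 the directions were mixed as well, though most regions between 0.5 and 1 Mb fell. The intergenic region at +471.9 kb (chr15:62457116-62457476) fell 2.39-fold in BALB/c (adjusted p = 1.9e-05) and 3.39-fold in SKG (adjusted p = 1.3e-06). Of the 12 regions between 0.5 and 1 Mb, 8 fell and 1 rose in each genotype (66.7% and 8.33%), with a median of -1.31 in BALB/c and -1.50 in SKG. Over all regions 23.4% fell and 25.7% rose in BALB/c, and 17.6% and 18.4% in SKG. The highest of them per kb, at +745.3 kb (chr15:62730550-62730879, in an intron of the noncoding gene Gm41333), had 32.3 and 27.9 CPM in BALB/c iNKT1, 48.8 and 50.9 CPM in SKG iNKT1, 5.55, 1.77 and 1.48 CPM in BALB/c iNKT2, and 9.51, 10.1 and 8.02 CPM in SKG iNKT2. No groups overlapped. It fell 10.2-fold in BALB/c (-3.35 ± 0.345, adjusted p = 9.7e-07) and 5.39-fold in SKG (-2.43 ± 0.328, adjusted p = 1.9e-05). Next to it in the same gene, with 1 region between them, the region at +767.5 kb (chr15:62752658-62753065) rose 5.14-fold in BALB/c, from 1.05 ± 0.260 to 5.31 ± 0.886 CPM (adjusted p = 2.8e-05), and 8.78-fold in SKG (adjusted p = 7.2e-06). At +793.7 kb (chr15:62778934-62779274) the level fell again, from 23.9 ± 0.145 to 6.09 ± 1.42 CPM in BALB/c (adjusted p = 4.9e-06) and from 32.9 ± 0.351 to 4.34 ± 1.60 CPM in SKG (adjusted p = 2.5e-07).

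Farther out, iNKT2 cells had the higher level at +1300.8 kb (chr15:63285969-63286389) and +1626.0 kb (chr15:63611163-63611526), both in introns of the noncoding gene Gm41335. The second of these had 0.269 and 0.617 CPM in BALB/c iNKT1, 0.385 and 0.513 CPM in SKG iNKT1, 5.30, 5.0 and 4.49 CPM in BALB/c iNKT2, and 5.59, 4.27 and 5.33 CPM in SKG iNKT2. The subsets did not overlap and the genotypes did, and the rise was 11.7-fold in BALB/c (adjusted p = 3.8e-07) and 11.2-fold in SKG (adjusted p = 1.6e-06). The region at +1300.8 kb rose 5.56-fold in BALB/c (adjusted p = 3.9e-06) and 4.71-fold in SKG (adjusted p = 1.7e-05). From +926.0 kb on the nearest protein-coding start was that of Gsdmc, Gsdmc4 or Fam49b and no longer Myc, and the regions at +1983.9 and +2004.5 kb lay in introns of Fam49b, so position alone does not assign them to Myc. The region at +2004.5 kb (chr15:63989681-63990060) rose 3.63-fold in BALB/c (adjusted p = 2.0e-05) and 6.62-fold in SKG (adjusted p = 2.2e-06). Of the 16 regions between 1.5 and 2 Mb, 6 rose and 3 fell in BALB/c (37.5% and 18.8%, against 25.7% and 23.4% of all regions). In SKG 3 rose and 3 fell (18.8% each, against 18.4% and 17.6%).

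Between genotypes few downstream Myc regions moved. In iNKT2 cells the region at +745.3 kb was higher in SKG by 1.64 ± 0.328 (3.12-fold, adjusted p = 1.9e-03). Replicate 1 was the highest of the BALB/c iNKT2 libraries there, and without it the difference was 2.48 (adjusted p = 6.7e-08), whereas it did not pass without BALB/c iNKT2 replicate 2 (1.28, adjusted p = 0.022) or 3 (1.28, adjusted p = 0.015). The region at +160.0 kb, in an intron of Pvt1 (chr15:62145218-62145584), was lower in SKG in both subsets, with 3.76 and 3.53 CPM in BALB/c iNKT1 against 1.22 and 1.09 CPM in SKG iNKT1, and 3.83, 2.96 and 3.38 CPM in BALB/c iNKT2 against 1.57, 1.24 and 1.08 CPM in SKG iNKT2. The genotypes did not overlap, while the subsets did. The difference was -1.65 ± 0.309 in iNKT1 (adjusted p = 5.0e-03) and -1.35 ± 0.236 in iNKT2 (adjusted p = 6.7e-04). The first did not pass without either BALB/c iNKT1 replicate (1 and 2, adjusted p = 0.058 and 0.030), either SKG iNKT1 replicate (1 and 2, 0.055 and 0.066) or BALB/c iNKT2 replicates 2 or 3 (0.010 and 0.012), nor by voom with or without quantile scaling (0.050 and 0.020).

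In iNKT2 cells 4 more downstream Myc regions fell in SKG, making 5 of 63 where 10.1% of all regions fell. At +58.5 kb (chr15:62043597-62044156) the change was -1.06 ± 0.227 (adjusted p = 3.0e-03), from 6.21 ± 0.841 to 2.96 ± 0.395 CPM, and it did not pass without BALB/c iNKT2 replicate 3 (adjusted p = 0.013) or SKG iNKT2 replicate 3 (0.015). At +1983.9 kb (chr15:63969135-63969485) it was -0.93 ± 0.209 (adjusted p = 4.4e-03), and this did not pass without BALB/c iNKT2 replicate 1 or 2 (0.013 for both) or SKG iNKT2 replicate 2 or 3 (0.016 and 0.022). The regions at +1631.6 and +1781.1 kb, chosen after their values were seen, fell by 1.29 ± 0.295 (adjusted p = 4.7e-03) and by 2.38 ± 0.529 (adjusted p = 4.4e-03). The first did not pass without BALB/c iNKT2 replicates 1 or 3 (0.021 and 0.011) or SKG iNKT2 replicates 2 or 3 (0.019 and 0.018), and the second without BALB/c iNKT2 replicate 2 (0.025) or SKG iNKT2 replicates 1, 2 or 3 (0.012, 0.020 and 0.011). Neither passed with quantile scaling (0.013 and 0.016). The region at +1781.1 kb (chr15:63766340-63766652) had no insertions in either BALB/c iNKT1 library and 1.38, 1.61 and 0.866 CPM in BALB/c iNKT2, so it was at least 24.1-fold higher in BALB/c iNKT2 than a floor of 3 insertions over the BALB/c iNKT1 group.

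The Myb promoter (chr10:21160651-21161471, holding the start of Myb) had 15.1 and 13.5 CPM in BALB/c iNKT1, 12.7 and 12.1 CPM in SKG iNKT1, 17.2, 20.1 and 20.9 CPM in BALB/c iNKT2, and 19.0, 17.9 and 16.7 CPM in SKG iNKT2. The iNKT2 libraries were above the iNKT1 libraries of their genotype, but no contrast passed by edgeR with TMM factors. In that fit iNKT2 against iNKT1 was at 0.44 ± 0.152 in BALB/c (adjusted p = 0.021) and 0.53 ± 0.158 in SKG (adjusted p = 0.012). The size depended on the scaling. It was 0.71 in both genotypes by library totals, and 0.84 in BALB/c and 0.78 in SKG by quantiles. Of all promoters, 89.3% in BALB/c and 87.8% in SKG lay below Myb with TMM factors. By quantiles these shares were 92.4% and 90.9%. Inside the gene, the region at +2.2 kb in an intron (chr10:21158104-21159461, chosen after its values were seen) rose from 17.5 ± 0.547 to 33.6 ± 4.28 CPM in BALB/c (0.94 ± 0.188, adjusted p = 4.8e-04) and from 11.4 ± 2.51 to 28.3 ± 5.79 CPM in SKG (1.31 ± 0.200, adjusted p = 6.1e-05).

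Upstream of Myb, toward Hbs1l, many regions differed between the subsets and a few between the genotypes. Over all 17 Myb regions, 8 rose and 1 fell from iNKT1 to iNKT2 in BALB/c (47.1% and 5.88%, against 25.7% and 23.4% of all regions), and 1 rose at least 4-fold (5.88%, against 15.5%). In SKG 10 rose and 1 fell (58.8% and 5.88%, against 18.4% and 17.6%), and 7 rose at least 4-fold (41.2%, against 10.2%). From BALB/c to SKG iNKT1 cells 4 of 17 fell (23.5%, against 1.42% of all regions), 2 of them at least 4-fold, and 0 rose. The fitted change there, passed or not, was below 0 at 17 of 17 regions, as it was at 52.7% of all regions, with a median of -1.37 against -0.03 over all regions. It was below 0 at 17 of 17 in each of the 17 alternative fits too, with a median of -1.49 to -0.98. Neighbouring regions can share fragments and are not independent. The summed level of the 17 regions was 87.5 and 80.6 CPM in BALB/c iNKT1, 50.9 and 44.7 CPM in SKG iNKT1, 124 to 134 CPM in BALB/c iNKT2 and 99.4 to 118 CPM in SKG iNKT2.

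**Figure D3:**
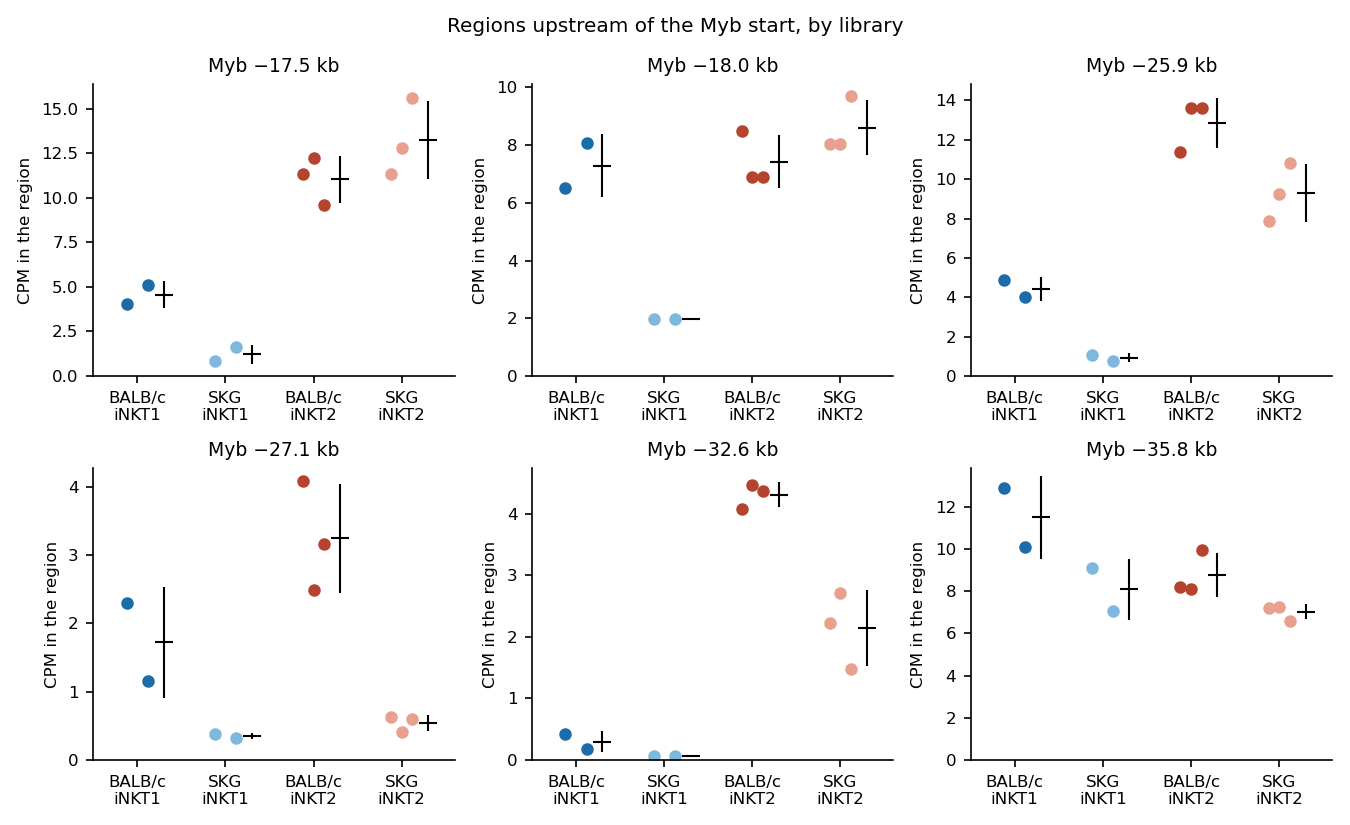
Accessibility of 6 regions upstream of the Myb start in CPM (vertical axes, from 0), 1 point per library by group, with group mean and SD as a black mark and bar. At -17.5, -18.0 and -25.9 kb the SKG iNKT1 libraries lay at 0.770 to 1.99 CPM, below all other libraries, and at -27.1 kb both SKG groups lay below both BALB/c groups.

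A pair of regions 142 bp apart, both in an intron of the noncoding gene Gm40608, carried the difference between subsets in the genotype effect. The region at -17.5 kb (chr10:21178287-21178651) had 4.03 and 5.11 CPM in BALB/c iNKT1, 0.835 and 1.60 CPM in SKG iNKT1, 11.3, 12.2 and 9.61 CPM in BALB/c iNKT2, and 11.3, 12.8 and 15.6 CPM in SKG iNKT2. The SKG iNKT1 libraries were the lowest and the 2 iNKT2 groups overlapped. SKG fell against BALB/c by 1.89 ± 0.311 in iNKT1 (3.72-fold, adjusted p = 2.0e-03) and differed by 0.25 ± 0.192 in iNKT2 (adjusted p = 0.37), and the difference between these genotype changes was 2.14 ± 0.366 (adjusted p = 5.3e-03). From iNKT1 to iNKT2 it rose 2.43-fold in BALB/c (adjusted p = 1.8e-04) and 10.7-fold in SKG (adjusted p = 2.0e-07). Its neighbour at -18.0 kb (chr10:21178793-21179111) had 6.51 and 8.07 CPM in BALB/c iNKT1, 1.99 CPM in both SKG iNKT1 libraries, 8.50, 6.90 and 6.88 CPM in BALB/c iNKT2, and 8.05, 8.04 and 9.71 CPM in SKG iNKT2. Here the SKG iNKT1 libraries lay below the other 3 groups, which overlapped. The genotype change was -1.87 ± 0.247 in iNKT1 (3.64-fold, adjusted p = 3.9e-04) and 0.20 ± 0.173 in iNKT2 (adjusted p = 0.42), and their difference was 2.07 ± 0.302 (adjusted p = 2.1e-03).

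The difference between genotype changes kept its direction in every alternative run but often missed the threshold. At -17.5 kb it did not pass without BALB/c iNKT1 replicates 1 or 2 (adjusted p = 0.020 and 0.043), BALB/c iNKT2 replicates 2 or 3 (0.015 and 0.018), SKG iNKT1 replicates 1 or 2 (0.055 and 0.015) or SKG iNKT2 replicate 3 (0.014), nor by library totals (0.012), by voom (0.023) or by voom with quantile scaling (0.038). At -18.0 kb it did not pass without BALB/c iNKT1 replicates 1 or 2 (0.012 and 0.024), BALB/c iNKT2 replicates 2 or 3 (0.011 for both) or SKG iNKT1 replicates 1 or 2 (0.025 and 0.022), nor with quantile scaling (0.012). The fall in SKG iNKT1 did not pass at -17.5 kb without BALB/c iNKT1 replicates 1 or 2 (0.012 and 0.023) or SKG iNKT1 replicate 1 (0.057), or by voom with or without quantile scaling (0.050 and 0.019), nor at -18.0 kb without SKG iNKT1 replicates 1 or 2 (0.013 and 0.011). Leaving out an iNKT1 library leaves 1 in its group, whose spread is then taken from the other groups.

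Farther upstream the pattern varied. The region at -25.9 kb, over an exon of the noncoding gene Gm33619 (chr10:21186736-21187065), had 4.87 and 4.01 CPM in BALB/c iNKT1, 1.09 and 0.770 CPM in SKG iNKT1, 11.4, 13.6 and 13.6 CPM in BALB/c iNKT2, and 7.85, 9.23 and 10.8 CPM in SKG iNKT2. No groups overlapped, and SKG iNKT1 was lower than BALB/c iNKT1 by 2.25 ± 0.293 (4.77-fold, adjusted p = 3.4e-04), which did not pass without SKG iNKT1 replicate 2 (-2.02, adjusted p = 0.013) or with quantile scaling (-1.81, adjusted p = 0.023). It rose from iNKT1 to iNKT2 by 1.53 ± 0.209 in BALB/c (adjusted p = 1.5e-05) and by 3.30 ± 0.275 in SKG (adjusted p = 1.8e-07). The adjoining region at -26.2 kb (chr10:21187069-21187368) held 57 insertions in BALB/c iNKT1 and 3 in SKG iNKT1, a ratio of 10.5 with a 95% counting interval of 3.43 to 52.6 (adjusted p = 4.0e-03), and the test did not pass without BALB/c iNKT1 replicates 1 or 2 (0.031 and 0.016) or SKG iNKT1 replicates 1 or 2 (0.075 and 0.037), nor by voom with or without quantile scaling (0.13 and 0.091). In iNKT2 cells it fell in SKG by 1.16 ± 0.265 (adjusted p = 4.7e-03), and not without BALB/c iNKT2 replicates 2 or 3 (0.022 and 0.017) or SKG iNKT2 replicates 1 or 2 (0.014 and 0.022), nor with quantile scaling (0.011).

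The region at -27.1 kb (chr10:21187852-21188271) was low in SKG cells of both subsets. It had 2.30 and 1.15 CPM in BALB/c iNKT1, 0.385 and 0.321 CPM in SKG iNKT1, 4.08, 2.49 and 3.17 CPM in BALB/c iNKT2, and 0.624, 0.413 and 0.607 CPM in SKG iNKT2. SKG and BALB/c libraries did not overlap within either subset. The change was -2.55 ± 0.346 in iNKT2 (5.84-fold, adjusted p = 8.1e-05) and -2.30 ± 0.505 in iNKT1, where it did not pass (adjusted p = 0.014).

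At -32.6 kb (chr10:21193411-21193731, intergenic) BALB/c iNKT1 had 0.418 and 0.176 CPM and BALB/c iNKT2 had 4.08, 4.47 and 4.37 CPM, a rise of 3.76 ± 0.379 (13.5-fold, adjusted p = 7.9e-07). In SKG the iNKT1 group held 2 insertions there and iNKT2 156, a ratio of 34.6 with a 95% counting interval of 9.42 to 288 (adjusted p = 6.6e-06). The region with most insertions per kb, at -35.8 kb (chr10:21196600-21196936), had group means of 7.02 to 11.5 CPM and passed in no contrast. At -43.9 kb (chr10:21204696-21205064) the BALB/c level fell from 8.36 ± 0.347 to 4.37 ± 1.25 CPM (-0.94 ± 0.269, adjusted p = 6.6e-03), which did not pass without BALB/c iNKT1 replicates 1 or 2 (0.071 and 0.030) or BALB/c iNKT2 replicates 2 or 3 (0.056 and 0.024), nor by library totals (0.065). In SKG against BALB/c the change there was -1.39 in iNKT1 (adjusted p = 0.019) and -0.96 in iNKT2 cells (adjusted p = 0.016), and neither passed. At -46.6 kb (chr10:21207367-21207748) the SKG level fell from 2.79 ± 0.411 to 1.35 ± 0.146 CPM (-1.05 ± 0.293, adjusted p = 7.4e-03), and the call was lost in 8 of the 10 fits without 1 library, all but those without BALB/c iNKT2 replicates 1 or 2 (adjusted p up to 0.079, without SKG iNKT1 replicate 1), and also by library totals (0.026), with the 2 groups alone (0.013) and by voom with or without quantile scaling (0.011 and 0.014).

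Across the 97 regions, as over all regions, fewer passed between genotypes than between subsets. In iNKT1 cells 0 of 97 were higher and 5 lower in SKG at an adjusted p under 0.01 (background 0.662% higher and 1.42% lower), 4 of the 5 at Myb, and 0 and 2 by at least 4-fold (background 0.281% and 0.732%), both at Myb. At an unadjusted p under 0.05 the count was 22 of 97, with 12 of them at Myb. In iNKT2 cells 2 were higher and 8 lower (background 4.02% and 10.1%), and 0 and 2 by at least 4-fold (background 0.252% and 4.73%), 1 at Myb and 1 downstream of Myc. The difference between the 2 genotype changes passed at 2 of 97, the Myb regions at -17.5 and -18.0 kb, both higher in iNKT2 and both over 4-fold (background 0.446% higher and 0.479% lower, and 0.189% and 0.341% with at least 4-fold). For the subset, 19 of 97 rose and 13 fell by at least 4-fold in BALB/c (19.6% and 13.4%, background 15.5% and 6.36%), and 21 and 12 in SKG (21.6% and 12.4%, background 10.2% and 6.96%). The groups of the genotype comparisons are the groups of the subset comparisons, so these counts are not independent of each other.

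**Figure D4:**
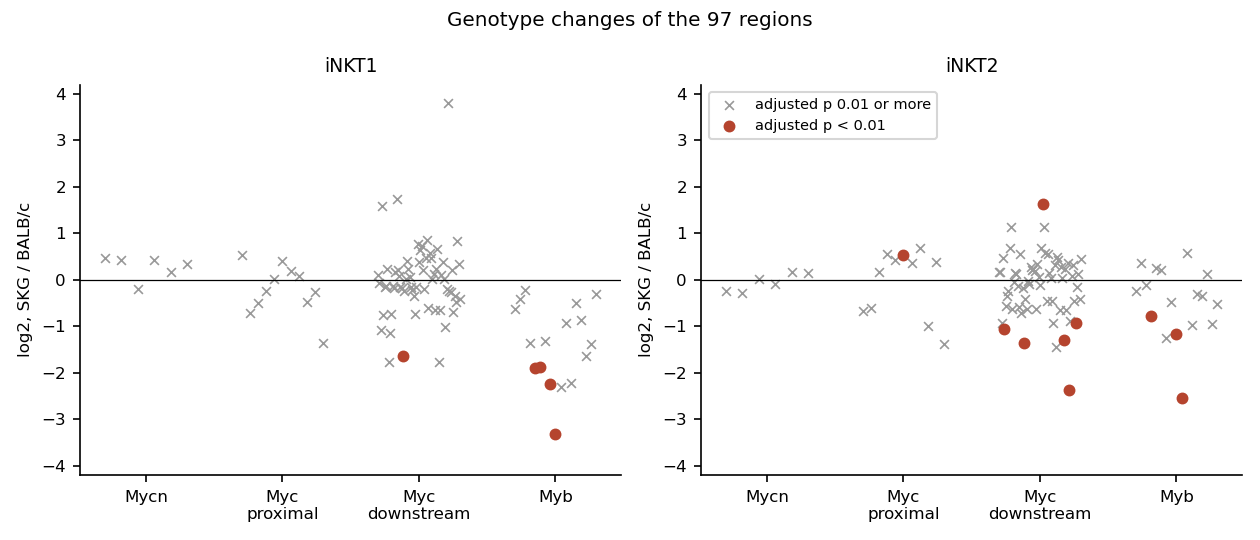
Log2 change from BALB/c to SKG (vertical axis) of the 97 regions in iNKT1 (left) and iNKT2 cells (right), grouped by locus on the horizontal axis and spread for legibility, with filled points at an adjusted p under 0.01. All 17 Myb regions lay below 0 in iNKT1 cells, while the 6 Mycn regions lay between -0.20 and 0.47. The cross at 3.80 downstream of Myc is a fitted value at +1781.1 kb, where BALB/c iNKT1 held 0 insertions.

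The genes that act with MYC and MYB were examined at their promoters. Of 10 promoters of the MYC network, 0 rose and 6 fell from iNKT1 to iNKT2 in BALB/c, where 7.08% of all 9916 promoters rose and 38.2% fell. In SKG 0 rose and 2 fell, where 7.98% of all promoters rose and 14.0% fell. Max, the partner of MYC and MYCN, fell by 0.61 in BALB/c (adjusted p = 7.3e-04) and Mlx, the partner of the related Mondo proteins, by 1.05 (adjusted p = 2.1e-05). The repressor Mnt fell by 0.86 in BALB/c (adjusted p = 2.2e-05) and was higher in SKG than in BALB/c iNKT2 cells by 0.49 (adjusted p = 4.5e-03), as was Mlx by 0.54 (adjusted p = 8.9e-03). Neither of the Myb relatives, Mybl1 and Mybl2, passed in any contrast by edgeR with TMM factors, and 1 of the 2 rose in SKG by library totals and with quantile scaling. Of 116 regions of the network in all, 7 rose and 41 fell in BALB/c and 12 and 23 in SKG. Of the 13 regions of Mybl1 and Mybl2 3 rose and 0 fell in each. Over all regions 25.7% rose and 23.4% fell in BALB/c, and 18.4% rose and 17.6% fell in SKG.

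Downstream of these factors, 10 G1 drivers had 0 promoters rising and 6 falling from iNKT1 to iNKT2 in BALB/c, and 1 rising and 3 falling in SKG. In the same fit 38.2% of all 9916 promoters fell and 7.08% rose in BALB/c, with a median change of -0.35. For SKG 14.0% fell and 7.98% rose, with a median of -0.14. Ccnd2 and Ccnd3, the D cyclins of lymphocytes, fell in BALB/c by 0.65 (adjusted p = 3.2e-04) and 0.99 (adjusted p = 2.1e-04), and Cdk4, their kinase, by 0.78 (adjusted p = 3.4e-05). Of 6 cell cycle inhibitors 3 fell in BALB/c and 1 in SKG, and Cdkn1a, which encodes p21 and is repressed by MYC in many cells, fell by 1.41 (adjusted p = 2.7e-05) and was higher in SKG than in BALB/c iNKT2 cells by 0.84 (adjusted p = 4.6e-03). Of 6 genes of dividing cells 3 fell in BALB/c and 0 in SKG, with Mki67 at -0.60 (adjusted p = 6.1e-04) and Top2a at -0.62 (adjusted p = 1.4e-03). Of 6 known MYC targets in biosynthesis 4 fell in BALB/c and 0 in SKG, with Npm1 at -0.72 (adjusted p = 1.8e-04), and of these 3 lists no promoter rose in either genotype by edgeR with TMM factors. Counted over all their regions, the lists split in direction. Dividing-cell genes had 14 regions rising and 8 falling of 59 in BALB/c, and 14 and 3 in SKG. MYC targets had 11 rising and 9 falling of 63 in BALB/c, and 14 and 4 in SKG. G1 drivers had 26 rising and 54 falling of 187 in BALB/c, and 23 and 49 in SKG. Inhibitors had 17 rising and 29 falling of 107 in BALB/c, and 16 and 18 in SKG. Among all 94823 regions the shares were 25.7% and 23.4%, and 18.4% and 17.6%. The promoter counts depended on the scaling. By library totals, the numbers falling in BALB/c were 5 of 10 for the MYC network, 4 of 10 for the G1 drivers, 2 of 6 for the inhibitors and 0 of 6 for both the dividing-cell genes and the MYC targets, and by quantiles they were 3, 4, 2, 0 and 0, with 1 of 6 inhibitors and 1 of 6 dividing-cell promoters rising in BALB/c. Over all promoters 15.6% fell and 11.2% rose by library totals, and 14.9% fell and 16.4% rose by quantiles. Between genotypes, 0 promoters of the 6 lists passed in iNKT1 cells by edgeR. In iNKT2 cells those higher in SKG numbered 2 of 10 for the MYC network, 1 of 10 for the G1 drivers (E2f1, 0.43, adjusted p = 9.1e-03), 1 of 6 for the inhibitors, 1 of 6 for the dividing-cell genes (Pcna, 0.46, adjusted p = 6.3e-03), 1 of 6 for the MYC targets (Nop56, 0.45, adjusted p = 7.3e-03) and 0 of 2 for the Myb relatives, and 0 were lower, where 8.28% of all promoters were higher and 2.02% lower. By library totals 0 of the 6 lists' promoters were higher, Mnt, Mlx and Cdkn1a included, and with quantile scaling 1 G1 driver and 1 inhibitor were.

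As a description, the promoters whose pattern over the 10 libraries was most like each member were looked up among 10748 promoters (Pearson r of log2 CPM over 10 libraries, which share depth and scaling). For Myc these were the promoter shared by Aimp2 and Pms2 (r = 0.988) and that of Map2k4 (r = 0.986). For Mycn they were the region shared by Acvr1 and Upp2 (r = 0.993) and the promoter of Sox4 (r = 0.988), which had a mean of 12.1 CPM in BALB/c iNKT1 and 43.8 CPM in BALB/c iNKT2. For Myb they were Cmya5 (r = 0.979), Slc9a2 (r = 0.973) and Plod2 (r = 0.971).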

How the data were processed

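ATAC-seq was analysed in 10 libraries of sorted thymic iNKT cells. Per the labels and the study's methods, the authors mapped paired reads to mm10 with Bowtie 1.0, trimmed unmapped reads with Trim Galore and mapped them again, removed mitochondrial and duplicate reads (Picard), called summits in each replicate with MACS2 on short fragments, merged the extended summits over replicates, and counted transposase insertions per region. The deposited values were taken as raw counts, since they are whole numbers with different totals, although the table is named as normalized. Its 94823 regions were 300 to 7709 bp wide (median 343 bp). The totals of 14988590 to 36342635 insertions cover these regions only and are not the full depth. Intervals given for ratios of insertions (95%, exact binomial) cover counting error only.

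Counts of all regions and libraries were fitted together by edgeR 4.0.16 (R 4.3.3) with TMM factors, 1 mean per group and the quasi-likelihood test, and p-values were adjusted by Benjamini-Hochberg over all regions. Every adjusted p in the text comes from this test unless another tool is named. A region rose or fell at an adjusted p under 0.01, and counts at 4-fold or more add the study's fold threshold. The fit was tested on simulated data. A promoter is the region that holds a gene's start, or else the nearest within 1 kb of it, or else one that holds the start of another of its protein-coding transcripts (Cdkn1a and Ldha among the genes listed). Positions are in mm10, and distances run from the start, negative upstream.

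The members and gene lists were chosen with earlier results of these data known. The regions described are the promoters, per gene block the region with most insertions per kb, the regions with the smallest adjusted p in each direction of each contrast, and those called in the difference of genotype changes. Others are marked where they appear. The alternatives were DESeq2 1.42.0, library totals, limma 3.58.1 voom with and without quantile scaling, a filter on low counts, the 2 groups compared alone, a replicate block, a looser threshold, and each library left out. Same-numbered SKG and BALB/c iNKT2 libraries deviated together from their group means (r = 0.492, 0.165 and 0.202, each over 0.1), so their numbers were taken to pair them, from the data and not from the labels. Some libraries of different number correlated more (BALB/c replicate 3 with SKG replicate 2, r = 0.278, and BALB/c replicate 2 with SKG replicate 3, r = 0.18), so the pairing of replicates 2 and 3 is uncertain. The pairs of SKG and BALB/c iNKT1 libraries did not (r = -0.00599). Same-numbered BALB/c iNKT1 and iNKT2 libraries also deviated together (r = 0.145 and 0.107), and those of SKG did not (r = 0.00508 and -0.0122). The summed level of the iNKT17 marker list is not reported here.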

Additional observations from a re-analysis of the deposited data

Results flagged for a closer look

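The difference between the genotype change in iNKT2 cells and that in iNKT1 cells passed its test at a pair of adjoining regions upstream of Myb. It was 2.14 ± 0.366 on the log2 scale at -17.5 kb (adjusted p = 5.3e-03) and 2.07 ± 0.302 at -18.0 kb (adjusted p = 2.1e-03), where SKG was lower than BALB/c in iNKT1 cells and not detectably different in iNKT2 cells. The regions lie 142 bp apart and are not independent.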

How the results depend on the processing

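Only the 66 changes of the named regions that had passed by edgeR with TMM factors were followed. Over their 1120 alternative values, 0 turned direction, 1020 still passed and 100 no longer passed. Most of these regions were picked for a small adjusted p in the same libraries, so a turn of direction was unlikely from the start. Changes that had not passed were not counted. The 4 named Mycn regions and the fall at Myb -27.1 kb in SKG iNKT2 cells passed in each alternative run. The Mycn regions at +1.1 and +3.5 kb, which were not among the named ones, did not. Quantile scaling took 16 calls, voom without it 8, library totals 5 and the 2 groups alone 2. Most of the 100 were lost when a library was left out. Leaving out BALB/c iNKT2 replicates 1, 2 or 3 took 2, 8 and 9 calls. For SKG iNKT2 replicates 1, 2 or 3 it was 2, 5 and 6. Leaving out any iNKT1 library, which leaves 1 in its group, took calls too. Library totals moved the median of all regions from iNKT1 to iNKT2 to 0.34 in BALB/c and 0.32 in SKG, from 0.06 and 0.14. With a replicate block, the Myc promoter difference in iNKT2 cells was 0.54 (adjusted p = 2.7e-03), that at Myc +745.3 kb 1.72 and that at Myb -27.1 kb -2.58. The block changed no call of the named regions in that comparison. Outside the named regions, some changes from iNKT1 to iNKT2 did not pass by edgeR with the block. These were Myb -22.6 kb (1.43, adjusted p = 0.016) and Myc +824.1 kb (-0.82, 0.011) in BALB/c, and Myc +817.6 kb (-1.15, 0.013) in SKG.

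Counts of the 97 regions at 4-fold or more varied as follows. At an adjusted p under 0.05 and 2-fold, iNKT2 against iNKT1 gave 38 higher and 25 lower in BALB/c and 35 and 24 in SKG, SKG against BALB/c gave 8 lower in iNKT1 and 2 higher and 7 lower in iNKT2, and the difference of genotype changes gave 4 higher. In iNKT1 cells the 2 lower regions became 0 with quantile scaling and 1 with voom alone, 3 with DESeq2, the block or the 2 groups alone, and 1 to 3 with a library left out (1 without BALB/c iNKT1 replicate 2 or either SKG iNKT1 library). In iNKT2 cells quantile scaling gave 1 higher and 1 lower, and leaving out a library gave 0 to 2 higher (2 without BALB/c iNKT2 replicate 1) and 1 to 2 lower (1 without BALB/c iNKT2 replicate 2 or any SKG iNKT2 library). The difference of genotype changes gave 1 region with DESeq2, 1 with voom alone, 0 with library totals or quantile scaling, and 0 to 2 with a library left out (0 without either BALB/c or SKG iNKT1 library, BALB/c iNKT2 replicates 2 or 3, or SKG iNKT2 replicate 3). The cause was not tested.

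With 2 libraries in each iNKT1 group, leaving 1 out takes the spread from the other groups. Small changes and regions under about 1 CPM in iNKT1 cells were limited by depth.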

Other observations

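Beyond the 50 kb window, the stretch between Myb and Hbs1l held 16 further regions up to 135 kb upstream of the Myb start, looked at after the values inside the window were seen. From iNKT1 to iNKT2 cells 9 of 16 rose and 0 fell in each genotype, where 25.7% of all regions rose in BALB/c and 18.4% in SKG, and in SKG against BALB/c iNKT1 cells 3 of 16 fell and 0 rose, where 1.42% of all regions fell. At -91.4 kb (chr10:21252167-21252597) the level was 27.1 ± 2.33 CPM in BALB/c iNKT1 (SD, n = 2), 13.8 ± 1.78 in SKG iNKT1 (n = 2), 22.9 ± 1.91 in BALB/c iNKT2 (n = 3) and 31.1 ± 0.940 in SKG iNKT2 (n = 3). SKG was lower in iNKT1 cells by 0.98 ± 0.160 (edgeR, adjusted p = 1.9e-03), and the difference between the genotype changes was 1.42 ± 0.203 (edgeR, adjusted p = 2.0e-03). At -63.5 kb (chr10:21224213-21224823) that difference was 1.45 ± 0.247 (edgeR, adjusted p = 5.2e-03). The regions at -84.2 kb and -87.8 kb were lower in SKG than in BALB/c iNKT2 cells, each by 2.25 on the log2 scale (edgeR, adjusted p = 1.1e-04 and 3.9e-05). The values of these 16 regions come from edgeR with TMM factors on all libraries, and were not followed through the alternatives.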
